A study of Danio rerio with 4 samples.

Results

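The regions described here are the sites listed for Flag-tagged Pou5f1 in late blastula zebrafish embryos, set against the regions that Input chromatin of the same stage gave. Chromatin immunoprecipitation with sequencing (ChIP-seq) fixes proteins to DNA, pulls down the DNA held by 1 protein and sequences it, and Input is the same kind of chromatin sequenced with no antibody. The late blastula Pou5f1-Flag list held 7130 intervals in 2 runs through the chromosomes (called passes here), and overlapping intervals were merged into 6500 loci. The Input list held 1901 intervals, none of which overlapped another, and the 4 lists of the series together held 22276 loci.

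Pou5f1, now named pou5f3 in zebrafish, is the fish relative of mammalian Oct4. It is a POU-family transcription factor that the egg supplies to the embryo, and it is known to work with SoxB1 factors and Nanog in starting transcription from the embryo's own genome. POU factors of this kind bind DNA through paired POU domains and can occupy sites far from any gene start, so a site is read by its place between flanking genes and not only at promoters.

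The ChIP sample came from maternal-zygotic spiel ohne grenzen (MZspg) embryos, which lack working Pou5f1 from both mother and embryo. They had been injected at the 1-cell stage with Pou5f1-Flag mRNA, dosed to restore their development, and the chromatin was pulled down with the anti-Flag M2 antibody. The Input sample came from wild-type embryos with no injection and no antibody. The genotype, the injection and the pull-down therefore differ together between the groups and cannot be told apart. The protein came from injected mRNA and not from the gene's own control, so its spread over cells need not match that of the native protein. Both of these samples pooled 20000000 nuclei, and each group of the series held 1 sample. The Sox2 list (wild-type, late blastula, 6128 loci) and the 512-cell Pou5f1-Flag list (MZspg with the same mRNA, 2000000 nuclei, 7747 loci) served only to describe Pou5f1-Flag loci further. No difference below has a replicate check, no test was made, and the intervals given are exact binomial 95% intervals that cover counting error alone.

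The bounds of the lists differed. Identifiers ran to 13010 in the Pou5f1-Flag list, of which 54.8% were listed, whereas all 1901 numbered Input intervals were listed. The largest false discovery rate was 2.77% for Pou5f1-Flag and 23.5% for Input, the largest filter p-value was 0.05 against 1, and the largest strand imbalance was 48.9% against 100%. Strand imbalance is the authors' normalized difference, the gap between forward and reverse reads as a percent of all reads in an interval. Holding Input to all 3 Pou5f1-Flag maxima left 410 Input loci, and this matched Input, chosen after seeing the data, stands beside the full list where it matters. Reads inside intervals summed to 841679 for Pou5f1-Flag over 2939 kb and to 966327 for Input over 2487 kb, which are not library depths.

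Pou5f1-Flag loci were narrow and of modest read count, and Input loci were wider and held more reads. The median Pou5f1-Flag locus was 291 bp wide, with quartiles of 263 and 390 bp, against 459 bp for Input, with quartiles of 279 and 852 bp. Only 147 Pou5f1-Flag loci (2.26%) were over 1 kb wide, against 424 Input loci (22.3%). The smallest width was 251 bp in both lists. A Pou5f1-Flag locus held a median of 40 reads in its strongest interval, with quartiles of 30 and 63, and an Input locus held 72, with quartiles of 40 and 191. Per kb of locus the medians were 137 and 175 reads. With matched Input the gap in width and reads was larger, at medians of 500 bp and 98.5 reads and in the same direction as with the full list.

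**Figure D1:**
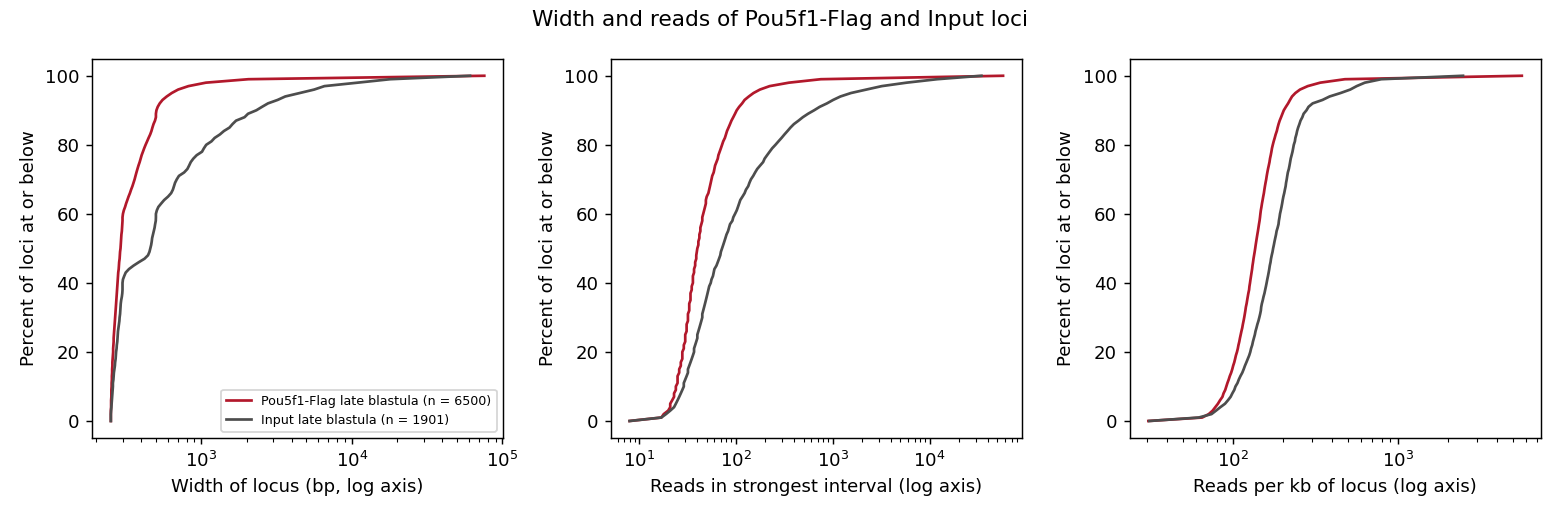
Cumulative percent of loci (vertical axis) by width in bp, by reads in the strongest interval and by reads per kb (horizontal log axes) for 6500 Pou5f1-Flag and 1901 Input loci. The Input curves lie to the right of the Pou5f1-Flag curves over most of their length, with medians of 459 against 291 bp and 72 against 40 reads.

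The few very large Pou5f1-Flag loci were those that Input also held. The widest reached 75824 bp and the fullest 57221 reads, and both values came from loci that overlapped an Input interval. Among the 6096 loci without Input the widest was 3367 bp and the fullest held 1016 reads. The 404 loci with Input had a median of 506 bp and 100.5 reads, against 288 bp and 39 reads for the rest. Of the 147 loci over 1 kb, 120 overlapped Input and 27 did not.

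The share of loci common to both lists was small for Pou5f1-Flag and larger for Input. Of the Pou5f1-Flag loci 404 of 6500 (6.22%, 5.64 to 6.83) overlapped an Input interval by at least 1 bp. Of the Input intervals 604 of 1901 (31.8%, 29.7 to 33.9) overlapped a Pou5f1-Flag locus. With matched Input these were 144 of 6500 (2.22%, 1.87 to 2.60) and 180 of 410 (43.9%, 39 to 48.9). Pou5f1-Flag loci without Input lay a median of 976 kb from the nearest Input interval, and 259 of them (4.25%) lay within 10 kb of one. The shares with Sox2 and with 512-cell Pou5f1-Flag lay close together for loci with and without Input. They were not compared at matched reads or width, and loci with Input were the larger ones. A Sox2 locus was found at 23.8% (19.7 to 28.2) of the loci with Input and at 27.3% (26.2 to 28.5) of those without, and a 512-cell Pou5f1-Flag locus at 12.4% (9.33 to 16.0) and 12.7% (11.9 to 13.6).

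The 10 strongest loci without Input were wider than most, from 505 to 3367 bp, against a median of 288 bp and a 90th percentile of 490 bp for all loci without Input. The locus between dusp14, a dual-specificity phosphatase gene, and hnf1ba, a homeobox gene of hindbrain and kidney, held 503 forward and 513 reverse reads over 509 bp (chromosome 15, 15013047 to 15013555 in the Zv9 build). The locus between trim23 and lpar1, a lysophosphatidic acid receptor gene, held 467 forward and 497 reverse reads over 508 bp. That between klf2a, a Krüppel-like factor gene, and stil held 444 and 412 reads over 1909 bp, with a second locus 0.218 kb away. The other members of the 10 strongest lay between slc49a3 and atp6v0e1, mstnb and pms1, hrh2a and pcdh2g29, thbs4a and serinc5, dnal4b and si:dkey-179j5.5, dus3l and cyp51, and an unnamed gene (NM_001114479) and egfl7. Of the 10, 9 came from the second pass alone, 6 were 500 to 510 bp wide, 2 had a Sox2 locus and 0 had a 512-cell locus. Their forward share ran from 43.3% to 52.3%. Of the next 20 loci, with 329 to 590 reads, 12 were 500 to 510 bp wide, 1 had a Sox2 locus and 5 had a 512-cell locus. Over all Pou5f1-Flag loci, 81.4% came from the second pass alone and 2.77% were 500 to 510 bp wide. A Sox2 locus lay at 27.1% of all and a 512-cell locus at 12.7%.

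That width class stood apart from its neighbours in size. It held 180 loci (2.77%) with a median of 109.5 reads. Of these, 47 (26.1%, 19.9 to 33.2) overlapped Input and 46 (25.6%, 19.4 to 32.6) had a Sox2 locus. The 976 other loci of 400 to 600 bp overlapped Input in 6.45% of cases (5.0 to 8.18) and had a Sox2 locus in 49.2% (46.0 to 52.4). Forward reads were under 50% in 146 of the 180 loci (81.1%) and in 49.7% of the 976. Input had 50 intervals of this width (2.63% of its list), and matched Input had 23 (5.61%). The class was singled out after its values were seen.

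Forward and reverse reads were close to balance in both lists, and the difference between the lists lay in the tails. The forward share had a median of 48.6% for Pou5f1-Flag (quartiles 42.3% and 55%) and 48.1% for Input (quartiles 42.2% and 56.1%). A share between 40% and 60% was found in 4661 Pou5f1-Flag loci (71.7%, 70.6 to 72.8) and 1270 Input loci (66.8%, 64.6 to 68.9). Outside 25% to 75% lay 112 Input loci (5.89%) and 0 Pou5f1-Flag loci, whose list stops at an imbalance of 48.9%. With matched Input the balanced share was 72.2% (67.6 to 76.5), an interval that holds the Pou5f1-Flag share.

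Read number moved with balance, and at matched read number the lists differed most at the ends. Among loci of 8 to 19 reads the median imbalance was 22.2% for 188 Pou5f1-Flag loci and 42.8% for 40 Input loci, with none in matched Input. The Pou5f1-Flag list stops at an imbalance that full Input exceeds, so part of that gap can be built in. Among loci of 20 to 39 reads the median imbalance was 15.4% for 2997 Pou5f1-Flag loci, 22.2% for 415 Input loci and 24.3% for 28 matched Input loci. From 100 to under 200 reads the values came close, at 8.94%, 10.0% and 10.0%. Among loci of 200 reads and more they were 7.73% for 230 Pou5f1-Flag loci, 13.9% for 455 Input loci and 14.0% for 102 matched Input loci. In that last class the median widths were 1199, 1949 and 1434.5 bp.

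**Figure D2:**
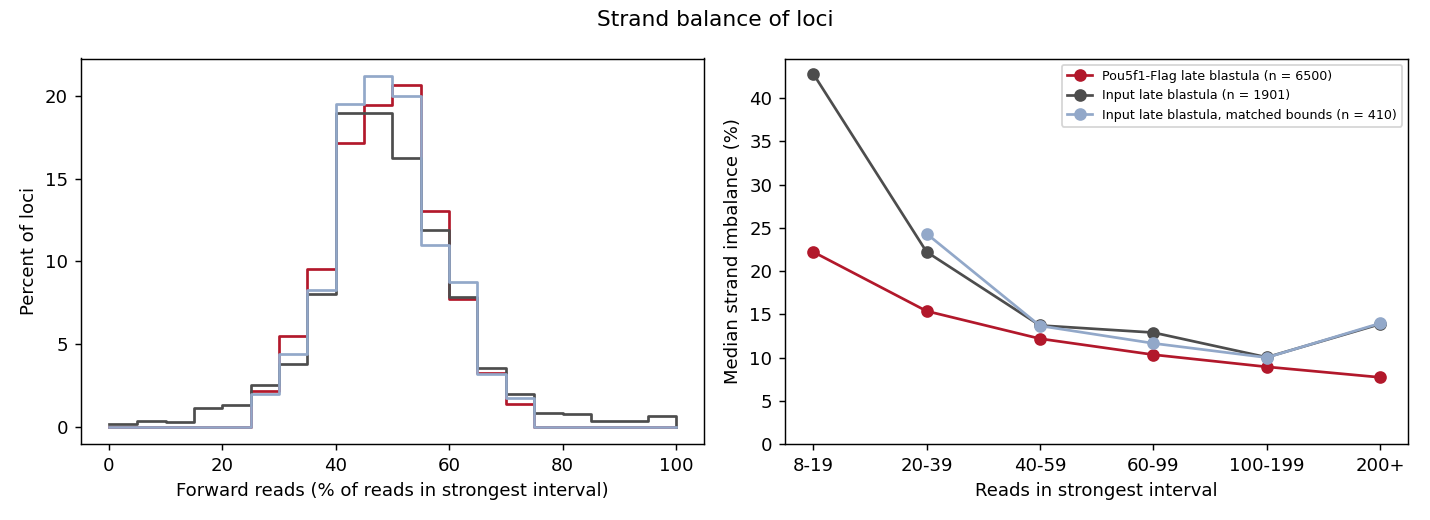
Left, percent of loci (vertical axis) by the forward share of reads in steps of 5 percentage points. Right, median strand imbalance in percent by read class, for Pou5f1-Flag, Input and Input held to the same maxima. Input alone has loci beyond 25% and 75%, and imbalance falls with reads in Pou5f1-Flag from 22.2% to 7.73%.

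Pou5f1-Flag loci were spread more evenly over the chromosomes than Input loci, though not uniformly. Per Mb, with each chromosome's length set by the furthest interval in the series, Pou5f1-Flag ran from 3.86 loci on chromosome 9 to 6.17 on chromosome 1, a 1.60-fold range. Input ran from 0.415 on chromosome 1 to 3.22 on chromosome 9, a 7.76-fold range, so the chromosome fullest in 1 list was the emptiest in the other. This did not hold with Input intervals within 10 kb counted once. Chromosome 4 then had the most Input groups, and chromosome 1 had 21 against 13 on chromosome 14. In matched Input chromosome 1 stayed the emptiest, and chromosome 20 was the fullest. The coefficient of variation over the 25 chromosomes was 12.6% for Pou5f1-Flag, 57.4% for Input and 79.7% for matched Input. Counting error raises this measure as counts fall, and the lists held 6498, 1887 and 404 chromosomal loci. The lists were not compared at equal size. As a description over 25 chromosomes of 1 library each, locus number correlated with that length at r = 0.80 for Pou5f1-Flag and 0.31 for Input.

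The 5 chromosomes with the most Input loci (9, 20, 4, 7 and 8) held 798 of 1887 chromosomal Input loci (42.3%) and 1533 of 6498 Pou5f1-Flag loci (23.6%). The overlap with Input was highest on some of these. On chromosome 8, 18.8% of 330 Pou5f1-Flag loci overlapped Input, on chromosome 4 16.2% of 376 and on chromosome 20 13.6% of 273. On chromosomes 1 and 6 the shares were 1.88% of 372 and 1.77% of 282. Chromosomes 1, 4 and 8 were the densest for Pou5f1-Flag. Without the Input-overlapping loci chromosome 1 remained the fullest at 6.06 loci per Mb. Counting intervals within 10 kb once left 59 Input groups on chromosome 4 and 26 on chromosome 9, where the full count was 163 and 187. The coefficient of variation of such groups per Mb was 9.59% for Pou5f1-Flag and 36.3% for Input. Mitochondrial DNA held 14 Input and 2 Pou5f1-Flag loci.

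**Figure D3:**
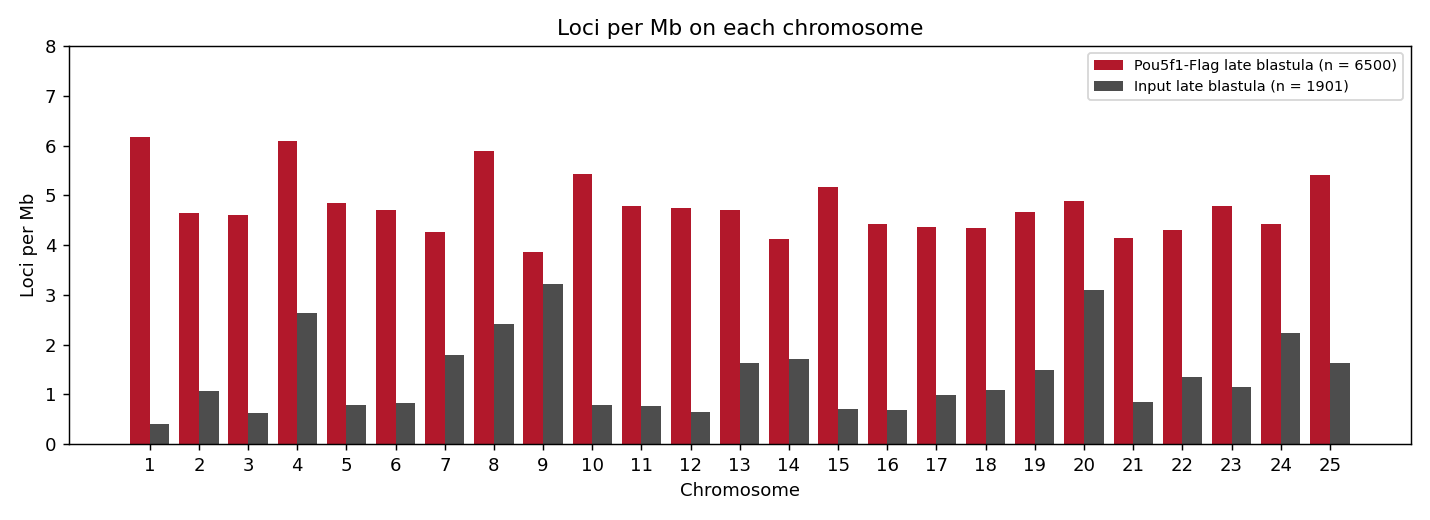
Loci per Mb (vertical axis, from 0) on each of the 25 chromosomes for Pou5f1-Flag and Input. Pou5f1-Flag bars stay between 3.86 and 6.17, and Input bars range from 0.415 to 3.22 with the highest on chromosomes 9 and 20.

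Spacing separated the lists most. The median gap from a locus to the nearest other locus of its own list was 27 kb for Pou5f1-Flag and 0.203 kb for Input, or 0.92 kb for matched Input. Another locus lay within 10 kb of 2446 Pou5f1-Flag loci (37.6%, 36.5 to 38.8) and of 1445 Input loci (76.0%, 74.0 to 77.9). Within 1 kb the shares were 16.2% (15.3 to 17.1) and 68.1% (66.0 to 70.2). The list of fewer loci thus had the closer ones. With matched Input the shares were 69.3% within 10 kb and 50.2% within 1 kb. Sox2 loci had a median gap of 19.6 kb and 512-cell Pou5f1-Flag loci of 44.3 kb, both on the scale of late blastula Pou5f1-Flag.

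Runs of loci with gaps of up to 1 kb showed the same contrast. Runs of 5 or more held 39 Pou5f1-Flag loci (0.600%, 0.427 to 0.819) in 7 runs and 878 Input loci (46.2%, 43.9 to 48.5) in 71 runs. The longest Pou5f1-Flag run had 7 loci over 7.14 kb beside NR_030137 on chromosome 4, and all 7 overlapped Input. A pair of runs of 6 lay between pbx3b and hpdb on chromosome 8, each with 3 loci that overlapped Input. A run of 5 between kat5b, an acetyltransferase gene of the Tip60 complex, and stip1, a co-chaperone gene, overlapped no Input interval, and 2 of its loci had Sox2. The longest Input runs had 57 loci over 80.6 kb between NM_001076572 and abhd18 on chromosome 14 and 47 over 45.6 kb between sik1 and cbsb on chromosome 9. Matched Input held 6 runs of 5 or more with 30 loci (7.32%, 4.99 to 10.3).

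**Figure D4:**
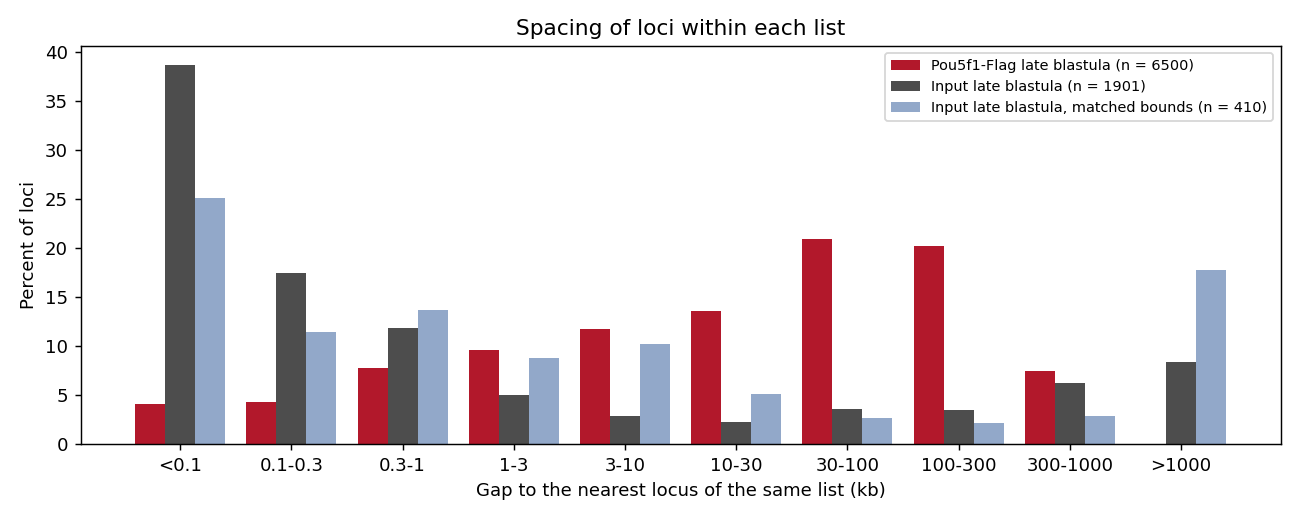
Percent of loci (vertical axis, from 0) by the gap in kb to the nearest locus of the same list, for Pou5f1-Flag, Input and Input held to the same maxima. Most Input loci lie within 1 kb of another, whereas Pou5f1-Flag peaks in the classes from 30 to 300 kb.

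Both passes of the Pou5f1-Flag list entered the merge, and loci found in both differed from those found in 1. The first pass had 1217 intervals (identifiers 1 to 3035) and the second 5913 (identifiers 3037 to 13010), with no overlaps inside a pass. The series design text says that Pou5f1 was run in technical duplicates, without a stage, and no source used here says whether the passes are these. The first pass alone gave 590 loci, the second alone 5288 (81.4%), and 622 loci (9.57%) had intervals of both. These 622 had a median of 446.5 bp and 80 reads, against 284.5 bp and 35.5 reads for first-pass loci and 284 bp and 38 reads for second-pass loci. A merged locus takes the whole span and the reads of its strongest interval, so part of this gap is built in. In 630 overlapping pairs of intervals the second pass had more reads in 562 (89.2%), with a median ratio of 1.49 (quartiles 1.2 and 1.96), and 8 pairs had identical coordinates. The single intervals of these pairs had medians of 300 bp and 49 reads in the first pass. In the second pass they had 408.5 bp and 79 reads.

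Loci of both passes were the ones most often shared with Sox2, and first-pass loci were the ones most often shared with Input. A Sox2 locus lay at 425 of the 622 (68.3%, 64.5 to 72.0), at 102 of the first-pass loci (17.3%, 14.3 to 20.6) and at 1235 of the second-pass loci (23.4%, 22.2 to 24.5). For 512-cell Pou5f1-Flag the shares were 27.8%, 7.80% and 11.5%. For Input they were 8.36% (6.31 to 10.8), 32.9% (29.1 to 36.8) and 2.99% (2.55 to 3.48). Classes matched for reads but not for width were also compared. In each of 4 classes from 20 to under 200 reads, loci of both passes had the highest share with Sox2. First-pass loci had the highest share with Input in each. The other orders changed with the class. Between first-pass and second-pass loci of 20 to 39 reads the Sox2 shares were 16.8% and 16.4%, and between loci of both passes and second-pass loci the Input shares were close from 100 to under 200 reads, at 8.50% and 8.21%. Between 60 and 99 reads a Sox2 locus lay at 182 of 242 loci of both passes (75.2%, 69.3 to 80.5), at 17 of 68 first-pass loci (25%, 15.3 to 37.0) and at 270 of 772 second-pass loci (35.0%, 31.6 to 38.5). Input overlapped 2.89%, 48.5% and 4.92% of them. A forward share of 40% to 60% was found in 85.9% of loci of both passes, 71.7% of second-pass and 57.1% of first-pass loci. These shares were not matched for reads. Median strand imbalance fell as reads rose over all Pou5f1-Flag loci, and the part of reads here was not tested.

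Genes flanked by many Pou5f1-Flag loci and no Input interval were counted next. Each locus names the gene on its lower and on its higher side, so neighbours can count for the same locus, and a gene beside a long stretch without other listed genes can gather loci from all of it. Being named does not show that a gene is regulated from there. Of the 9679 genes that any list named, 382 (3.95%) had at least 5 Pou5f1-Flag loci and no Input interval. Whatever their Input, 575 genes (5.94%) had at least 5 loci, so 193 of these also had Input. Without Input, 1124 genes (11.6%) had at least 3 loci and 98 (1.01%) had at least 8. With loci within 1 kb counted once, 311 genes without Input had at least 5, so close neighbours add to these counts. At the threshold lay 156 genes with 5 loci and 256 with 4, among them pou5f3 itself just inside and nanog and klf2a just outside. The median over all named genes was 1 locus. The 382 genes shared 1637 loci, and 379 of them lay on a single chromosome.

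The stretches beside these genes, each cut at its outermost loci, were mostly long. Their median length was 319 kb, 27 exceeded 1 Mb and 36 were under 50 kb. The density, as gaps per Mb between outermost loci, had a median of 17.7 per Mb, and the genome held 4.79 loci per Mb. These measures differ, and the rule of at least 5 loci and the cut at outermost loci both raise the first. The values therefore do not show that loci lie closer beside these genes. Across the 379 genes the number of loci rose with the length of the stretch (Spearman's rho 0.37 over genes, which share loci). The stretch ends at the counted loci, so part of this relation is built in. The 1637 loci had a median of 42 reads and 294 bp, near the 39 reads and 289 bp of the other 4863. A Sox2 locus lay at 31.5% of them and at 25.6% of the others. Of the 382 genes 89 (23.3%) had no Sox2 at any of these loci, and 50 had neither Sox2 nor 512-cell Pou5f1-Flag.

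The 25 genes with the most loci and no Input had 11 to 18 each, over 237 distinct loci of 16 to 216 reads. All fell under the same rule, so their counts are a description. Of the 237 loci 202 came from the second pass alone, as did 81.4% of all Pou5f1-Flag loci. A Sox2 locus lay at 38 of the 237 (16.0%, 11.6 to 21.3), below the 27.1% (26 to 28.2) of all Pou5f1-Flag loci. Stretches over 500 kb held 21 of the 25, and none of the 24 with a stretch on a single chromosome was under 100 kb. A further 5 genes also had 11 loci and fell outside on the tie-break by reads. They were yif1b, nxnl2, skia, hyi and stip1, and nxnl2 (11 loci in 18.5 kb), skia (11 in 74.8 kb) and stip1 (11 in 73.5 kb) were the most compact. Below them 11 genes had 10 loci.

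Developmental regulators among the 25 were irx1a, sall4, tfap2c and tdgf1. The gene irx1a encodes an Iroquois homeobox factor of neural patterning and had 17 Pou5f1-Flag loci, 0 Input, 9 Sox2 and 9 512-cell loci beside it. Its Pou5f1-Flag loci ran over 934 kb (chromosome 16, 590076 to 1524188) with 23 to 91 reads, and 6 had Sox2 at the same position. The strongest, with 91 reads at 1391766 to 1392164, had both Sox2 and 512-cell Pou5f1-Flag. Of the 17, 13 lay between irx1a and sim1a.

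For sall4, a zinc finger factor known for stem cell maintenance in mammals, the numbers were 13 Pou5f1-Flag, 0 Input, 17 Sox2 and 6 512-cell loci. A Sox2 locus overlapped 8 of the 13, the most for any of the 25 genes, and a 512-cell locus overlapped 4. The strongest held 123 reads at 39074081 to 39074628 on chromosome 23, with both Sox2 and 512-cell Pou5f1-Flag. Another with 107 reads, at 39046637 to 39047134, had neither. The gene tfap2c, an AP-2 factor of non-neural ectoderm and neural crest, had 12 Pou5f1-Flag, 0 Input, 8 Sox2 and 5 512-cell loci. All 12 lay between it and ddx27, an RNA helicase gene, over 1030 kb of chromosome 6, and 2 had Sox2.

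The gene tdgf1, also called one-eyed pinhead, encodes the Nodal co-receptor, and had 15 Pou5f1-Flag, 0 Input, 8 Sox2 and 3 512-cell loci. They fell into separate groups. On chromosome 10, 4 lay between apc and tdgf1 within 1970987 to 1990455, and the strongest of these (128 reads, 474 bp, both passes) had Sox2 and 512-cell Pou5f1-Flag. The other 11 lay between tdgf1 and nxnl2 within 2486912 to 2505410, with 31 to 143 reads, and 2 of them had Sox2. Those 11 made nxnl2 the densest of the 379 genes on a single chromosome, at 541 gaps per Mb. The loci beside kat5b were likewise grouped, with a median gap of 1.11 kb among its 14 loci, of which 5 had Sox2 and 5 came from the first pass alone.

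Of the 25 genes, ctnna2, opcml and robo2 belong to adhesion and axon guidance. Sox2 lay at 2, 0 and 0 of their loci, and 11 of the 25 genes had Sox2 at none. The gene ctnna2, which encodes the neuronal alpha-catenin, had the most Pou5f1-Flag loci of any gene without Input, 18, with 7 Sox2 and 7 512-cell loci listed beside it. They covered 1427 kb of chromosome 1 (42620882 to 44047497) with 22 to 137 reads, and 2 had Sox2 at the same position. Of these, 15 lay between ctnna2 and suclg1, a mitochondrial enzyme gene, and count for both. The gene opcml, of the IgLON cell adhesion family, had 16 Pou5f1-Flag, 0 Input, 3 Sox2 and 8 512-cell loci. At none of the 16 was there a Sox2 or 512-cell locus at the same position. All 16 came from the second pass alone, as did 81.4% of all Pou5f1-Flag loci. The Slit receptor gene robo2 had 11 Pou5f1-Flag loci of 24 to 150 reads, also all from the second pass, with Sox2 at 0 and 512-cell Pou5f1-Flag at 2.

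Other long stretches had loci but no Sox2 at any of them. Between NM_201285 and rps27a, a gene for a fused ubiquitin and ribosomal protein, 15 loci lay over 1622 kb of chromosome 6, with Sox2 at 0 and 512-cell Pou5f1-Flag at 4. The 512-cell list named NM_201285 at 19 loci and rps27a at 0, so gene columns of the lists do not always name the same gene at a position. The transporter gene abca5 had 14 loci with a median gap of 138 kb, 13 of them between it and ppp2r2d, a phosphatase subunit gene, and none of the 14 had Sox2 or a 512-cell locus. In the 512-cell list those genes had 21 and 16 loci at other positions. The 12 loci between insb, an insulin gene, and cfap96 also had neither. For lims1, a focal adhesion gene, 0 of 13 loci had Sox2 and 3 had a 512-cell locus. For pnn, a splicing-associated gene, and its neighbour jkamp, 0 of 11 each had Sox2.

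The remaining genes of the 25 fell between these. The 17 loci between trim8b, a ubiquitin ligase gene, and chmp6b, a membrane-sorting gene, were spread over 2539 kb of chromosome 12, and 2 had Sox2. For man2b1, a lysosomal mannosidase gene, 2 of 12 loci had Sox2, and for zgc:163040 2 of 12. For nop16, a nucleolar protein gene, and rbm41 the counts were 6 of 11 each. The name rbm41 was listed on chromosomes 21 and 7, so no stretch is given for it.

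**Figure D5:**
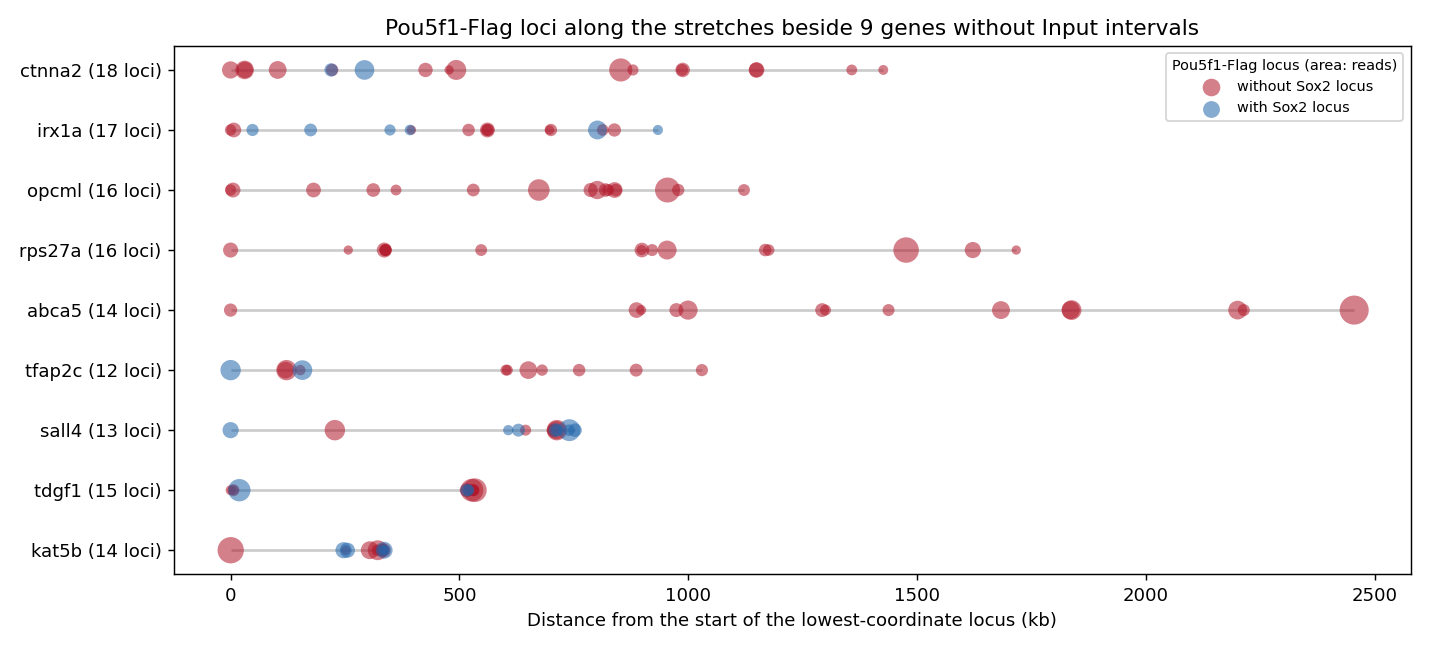
Pou5f1-Flag loci beside 9 genes without Input intervals, by distance in kb from the start of the lowest-coordinate locus (horizontal axis), with point area proportional to reads and colour for a Sox2 locus at the same position. Loci of opcml, rps27a and abca5 have none with Sox2, sall4 has 8 of 13, and most of those of tdgf1 and kat5b lie in tight groups.

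The 11 gene lists were read against the 3.95% of all named genes with at least 5 Pou5f1-Flag loci and no Input. The 8 lists of developmental regulators, signalling and adhesion together had 36 of 197 named genes (18.3%) and a median of 2 loci, and the 3 other lists had 1 of 41 (2.44%) and a median of 0. The share of the 3 other lists was near that of all named genes. One by one the 8 lists are small, with 19 to 44 named genes of which 2 to 7 met the rule. No interval was computed for them, so no single list is set above the 3.95%. Developmental genes can lie beside longer stretches without genes, and the part of stretch length in these shares was not tested. The lists were chosen with results of these data known, and no test was made.

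Pluripotency and zygotic activation factors had 6 of 20 named genes (30%) and a median of 4 loci. After sall4 came klf6a, a Krüppel-like factor gene (6 loci over 786 kb, Sox2 at 1), and foxd3, a forkhead gene (6 loci over 66.8 kb of 25 to 93 reads, Sox2 at 3). The others were sox2, sox19a and pou5f3, with 5 loci each. At pou5f3 the loci held 38, 114, 105, 65 and 37 reads within 45.1 kb of chromosome 21 (11892760 to 11937841), and the first 4 had Sox2. Outside the threshold, nanog had 4 loci with Sox2 at 3, and klf2a had 4, of which 1 held 856 reads and the others 23 to 38.

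Among Bmp and dorsoventral genes 3 of 25 (12%) met the rule, with a median of 2 loci. The Bmp-induced helix-loop-helix gene id1 had 8 loci of 28 to 130 reads over 132 kb of chromosome 11 with Sox2 at 7. The ventral homeobox repressor gene vox had 6 loci of 68 to 169 reads over 84.9 kb of chromosome 13, all with Sox2 and 5 with 512-cell Pou5f1-Flag. The inhibitory Smad gene smad7 had 7 loci, with Sox2 at 2. Nodal and mesendoderm genes had 3 of 19 (15.8%) and a median of 1. Besides tdgf1 these were the T-box gene tbx16 (5 loci, up to 143 reads, Sox2 at 4) and the notochord homeobox gene noto (5 loci, up to 96 reads, Sox2 at 4).

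Signalling lists gave 2 of 19 genes for Fgf (10.5%), 4 of 23 for Wnt (17.4%) and 4 of 22 for Notch (18.2%), with medians of 2, 3 and 1 loci. In the Fgf list the receptor gene fgfr2 had 9 loci up to 194 reads and the Ets factor gene etv4 had 5, while the ligand gene fgf17 had 4. In the Wnt list the Groucho co-repressor gene tle3a had 10 loci of 21 to 169 reads over 356 kb with Sox2 at 8. The beta-catenin gene ctnnb1 had 8, up to 280 reads, with Sox2 at 2, and the feedback inhibitor gene axin2 had 7. In the Notch list the ligand genes dla and dlc had 6 and 5 loci. The receptor gene notch3 had 5 loci of 80, 73, 51, 99 and 49 reads within 19.1 kb of chromosome 3 (54180759 to 54199822), all with Sox2 and none with 512-cell Pou5f1-Flag.

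Neural and ectodermal factors had 7 of 44 genes (15.9%) and a median of 2 loci. Besides irx1a and tfap2c, the head homeobox gene otx1 had 6 loci of 23 to 163 reads over 37.6 kb with Sox2 at 4. In this list pbx3b had 91 Pou5f1-Flag loci, but 93 Input intervals also named it. Axon guidance and adhesion genes had 7 of 25 (28.0%) and a median of 4. The Eph receptor gene epha2a had 8 loci up to 231 reads within 29.3 kb, with Sox2 at 3. The semaphorin gene sema6d had 8 over 413 kb with Sox2 at 2, and the plexin gene plxna1b 8 over 465 kb with Sox2 at 4.

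Few genes of the comparison lists met the rule, as did few of all named genes (3.95%). In lists of 8 and 10 named genes a count of 0 cannot be told apart from that share. Germ plasm and oocyte genes had 0 of 8, with at most 1 locus, at dnd1 (47 reads) and piwil1 (44 reads), and buc had 0. Ribosome and proteasome genes had 1 of 23 (4.35%), near the background, and a median of 1 locus, the same as the Nodal and Notch lists. Of the members that did not meet the rule, psmb1 had 4 loci and psma2a 3. Genes of adult muscle, blood and liver had 0 of 10, led by fabp10a with 3 loci and serpina1 and prss1 with 2 each.

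Input loci were concentrated beside few genes. The 10 genes with the most Input intervals shared 487 of 1901 (25.6%). The genes hpdb and pbx3b on chromosome 8 had 96 and 93 Input intervals and 93 and 91 Pou5f1-Flag loci, of which 48 and 49 did not overlap Input. By contrast zdhhc21 and nadsyn1 on chromosome 7 had 91 and 89 Input intervals and only 9 and 8 Pou5f1-Flag loci. NM_001076572 and abhd18 on chromosome 14 had 70 Input intervals and 4 Pou5f1-Flag loci each. For NM_001098396 (94 and 26), zgc:165600 (71 and 18) and cbsb (66 and 3) every Pou5f1-Flag locus overlapped Input. The gene lztfl1 had 70 and 12, and 6 of its Pou5f1-Flag loci did not overlap Input.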

How the data were processed

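ChIP-seq peak lists of 4 zebrafish embryo samples were used, 1 per group. Per the file headers, each deposited interval carries read counts (total and by strand), its FDR as a percent, the p-value of a Wilcoxon filter, and a normalized difference, a fraction that recalculates as the absolute strand difference over all reads. The authors called intervals per sample. The submitters' processing notes name CASAVA without a version. Neither aligner nor peak caller is named in the sources used here. Library totals were not used. Coordinates are Zv9, per the identifiers in the late blastula files, and are printed counted from 1. The 512-cell file names no build and was taken as Zv9. Whether loci are exonic or intronic was not analysed here.

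Intervals sharing at least 1 bp were merged within a list. A locus took reads and strand from its strongest interval and width from its whole span. Genes were matched by RefSeq accession to a GRCz12tu table, used for names alone, for 95.1% of 5362 accessions (Pou5f1-Flag) and 92.0% of 909 (Input). Named are the 25 genes with the most loci and no Input (ties by reads), the 10 strongest loci without Input, the 10 genes with the most Input intervals and 3 genes per list. Genes named outside these rules were chosen after their values were seen, and some genes that the rules name are not reported here. Members and lists were chosen with earlier results of these data known. Merging, overlap and spacing were tested on simulated intervals. Python 3.11.15, pandas 2.3.3 and scipy 1.17.1 were used.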

Additional observations from a re-analysis of the deposited data

How the results depend on the processing

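With 1 sample per group no replicate could be left out, and no paired analysis was possible because each group holds 1 sample. The alternatives concern passes, merging, bounds and overlap. Of the alternatives run on 15 summary values, 21 stayed within 1.5 times a count or within the counting interval of a share or median, and 37 moved. The causes of these moves were not tested.

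With the first pass alone there were 1217 Pou5f1-Flag loci, with medians of 294 bp and 42 reads, 62.0% balanced, 29.4% within 10 kb of another and 20.5% with Input, and 18.7% of Input loci were shared. With the second pass alone 73.3% were balanced, 34.8% lay within 10 kb, 3.57% had Input and 16.5% of Input loci were shared. At 100 reads and more the balanced shares were 84.2% for Pou5f1-Flag and 79.9% for Input. Counting intervals within 10 kb once put 4.57% of Pou5f1-Flag groups on chromosome 4 and 4.1% of Input groups on chromosome 9, against 5.78% and 9.84% before. By share of the list, and not per Mb, the fullest chromosomes were then 1 for Pou5f1-Flag (5.97%) and 4 for Input (9.31%). Per Mb, chromosome 1 was already the fullest for Pou5f1-Flag before grouping. Input fell to 836 loci when merged within 1 kb and to 726 with a filter p under 0.05.

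Input held to the largest Pou5f1-Flag false discovery rate had 1221 loci, with medians of 650 bp and 130 reads, 70.8% balanced and 79.7% within 10 kb, and the shared parts were 4.92% of Pou5f1-Flag and 37.6% of Input loci. Input held to all 3 maxima had 410 loci, 500 bp, 98.5 reads, 72.2% balanced, 8.05% on chromosome 9, 12.9% on chromosome 20, its fullest, and 69.3% within 10 kb, with shared parts of 2.22% and 43.9%. Requiring centres within 100 bp gave 2.94% of Pou5f1-Flag and 10.0% of Input loci, and an overlap of at least 50% of the shorter interval gave 29.2% of Input loci. A minimum of 3 loci gave 1124 genes without Input and a minimum of 8 gave 98. The other settings for that count ran from 311 genes, with loci within 1 kb counted once, to 502, with all intervals unmerged.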

Other observations

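Among the 382 genes with at least 5 Pou5f1-Flag loci and no Input, 12 had a Sox2 locus at every one, and 7 of the 12 also had a 512-cell Pou5f1-Flag locus. They were chosen here after their values were seen. Besides vox and notch3 they included zic2a, a zinc finger gene of neural plate patterning, and its neighbour tmtc4, which share 6 loci of 34 to 154 reads within 24.8 kb of chromosome 9 (32342373 to 32367215). At 4 of the 6 both passes had an interval. The others were amotl2a, an angiomotin family gene (5 loci over 54.8 kb), the cyclin E gene ccne1 (5 over 711 kb), phtf1 (5 over 34.5 kb), trip4 (5 over 280 kb), marchf4a and pcca (6 shared over 28.5 kb), and arhgap4a and NM_001017713 (8 shared over 42.0 kb). Of the 89 genes with Sox2 at none of their loci, 39 had a 512-cell Pou5f1-Flag locus. The share of all 382 genes with such a locus is not given here, so the 7 of 12 and 39 of 89 are not compared.

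Compact groups other than that at nxnl2 included 6 loci in 24.6 kb between tma16 and tmem192, with Sox2 at 5. Beside zgc:163061 lay 7 loci in 26.9 kb with Sox2 at 0.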
